A study of Homo sapiens with 6 samples.

Results

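The secreted antimicrobial proteins of the airway are described here through 9 genes: LYZ, LTF, LCN2, SLPI, PI3, DEFB1, BPIFA1, PIGR and SCGB1A1. Every probe set annotated to exactly 1 of these symbols was taken, which gave 12 probe sets of 54613 tested and 9 genes of 19775. The lung adenocarcinoma cell line PC9/gef was compared with PC9, the line it came from, with 3 arrays per line. PC9/gef was selected by keeping PC9 cells under rising doses of gefitinib, an inhibitor of the EGFR kinase, and is resistant to the drug, whereas PC9 is sensitive. PC9/gef is a single derived line, and both lines were grown in the same medium with serum. By their labels, a line's samples are biological replicates, and no label names separate selections or clones, so each p-value measures only the spread between samples of 1 line. The values are log2 expression values per probe set, as normalized by the authors.

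The airway lining is covered by fluid into which club, goblet and submucosal gland cells release proteins that kill or starve microbes and that hold back the proteases of neutrophils. Lysozyme cuts the bacterial cell wall, lactoferrin takes up iron, and lipocalin-2 captures the siderophores with which bacteria collect it. SLPI and elafin block neutrophil elastase, and the polymeric immunoglobulin receptor carries IgA across the epithelium. Several of these genes are known to be induced in epithelium by interleukin-1 and interleukin-17 through NF-kappaB and C/EBP factors.

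The promoter of LCN2 is shown because it is the promoter of a gene called lower in PC9/gef that holds a match to both of these motifs. A window from 250 bases before to 50 bases after the start site was at hand for LCN2, LTF, PIGR and BPIFA1. These were the 4 of the 9 genes matched in the table of RefSeq promoters (GRCh38.p14) used here. The chromosome that holds DEFB1 was left out of this look-up, so DEFB1 could not be matched. The bases before the start site of LCN2 lie at chr9:128149203-128149452 on the plus strand, with the motif matches in capitals.
LCN2: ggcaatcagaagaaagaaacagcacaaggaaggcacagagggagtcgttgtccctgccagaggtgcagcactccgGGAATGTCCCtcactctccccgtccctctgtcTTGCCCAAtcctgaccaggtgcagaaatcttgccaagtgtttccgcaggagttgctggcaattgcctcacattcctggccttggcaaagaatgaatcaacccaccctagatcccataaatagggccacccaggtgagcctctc
The first run of capitals is an NF-kappaB motif read on the opposite strand, from -175 to -166 relative to the start site. The second is a match to the C/EBP motif TTGCNNAA on the same strand, from -143 to -136. Both motifs were searched on both strands, and they do not overlap here. Of 35116 promoter windows of 300 bases, 11.3% held the NF-kappaB motif, 10.5% the C/EBP motif and 0.772% both. BPIFA1 and 1 of the 3 windows of LTF held a C/EBP match, and the window of PIGR held neither motif. A match is a description of the letters, and binding was not measured.

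Values on each of the 6 arrays ran from 1.65 to 15.72, and each array's median was 2.55. The Pearson correlation over all probe sets was at least 0.99918 within a line and at most 0.99445 between lines. The background level was set at 2.65, which is the 95th percentile of 135 probe sets of olfactory receptors, genes that lung cells are not known for, and a line whose mean did not exceed it was read as being at background. A gene with several probe sets was read from the one that was brightest on average over the 6 arrays. The lines were compared with limma, and calls were made at an adjusted p under 0.05 after Benjamini-Hochberg adjustment over all probe sets. With 3 arrays per line, the smallest two-sided p of an exact permutation test is 0.1, so none was used. The epithelial identity of both lines was present, with EPCAM at 14.45 in PC9/gef and 14.46 in PC9, and all 6 epithelial markers above background level.

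The genes LYZ, SLPI, LCN2 and PI3, 4 of the 9, were lower in PC9/gef, and 0 were called higher by limma. Without adjustment, LTF was the single gene of the 9 that was higher at a limma p under 0.05, and the methods' t-test called 0 of the 9 higher with or without adjustment. At that unadjusted limma threshold, 3459 of all 11955 genes above background level were higher and 3541 lower. LYZ fell to 47.1% of its PC9 level, SLPI to 57.4%, and LCN2 and PI3 each to 63.4%. LTF and DEFB1 were above background level and were not called, and BPIFA1, PIGR and SCGB1A1 were at background level in both lines. Over all 19775 genes, 12.9% were called lower and 12.6% higher. Of the genes above background level in at least 1 line, 19.5% were called lower and 20.9% higher, beside 4 and 0 of the 6 such genes here, each of which was above that level in both lines. Of the probe sets, 6 of 12 were called lower, beside 8.99% of all probe sets tested. The median change of the 9 genes was -0.067 on the log2 scale, the value of DEFB1, beside -0.00065 over all genes. Among genes above background level, the medians were -0.66 for the 6 here and -0.0098 over all such genes. In bulk RNA, fewer cells that make a transcript and less transcript per cell cannot be told apart.

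**Figure D1:**
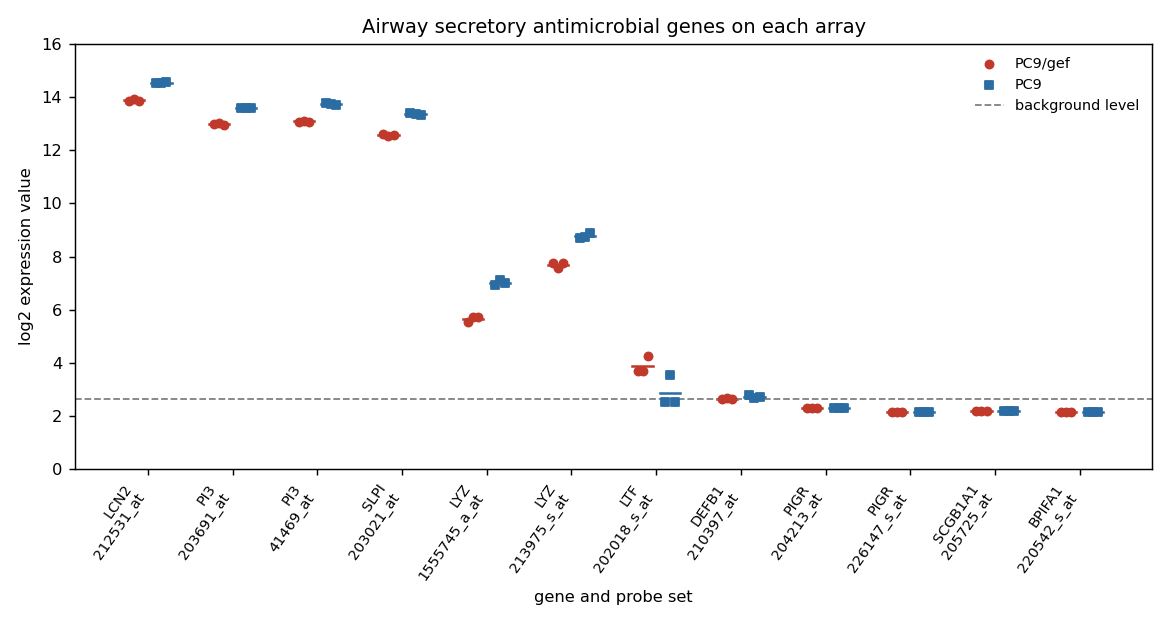
Log2 expression value (vertical axis) of each of the 12 probe sets, with 3 PC9/gef arrays as red circles left of 3 PC9 arrays as blue squares, short lines for the means and a dashed line at the background level of 2.65. The PC9/gef points of LCN2, PI3, SLPI and LYZ all lie below the PC9 points, LTF lies higher in PC9/gef with 2 PC9 arrays under the dashed line, and PIGR, SCGB1A1 and BPIFA1 lie under it throughout.

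Among the enzymes and the binders of iron and siderophores, LYZ and LCN2 were lower in PC9/gef and LTF did not pass the test. LYZ encodes lysozyme, which hydrolyses peptidoglycan. Its brighter probe set, 213975_s_at, read 7.74, 7.57 and 7.75 on the PC9/gef arrays and 8.71, 8.73 and 8.88 on the PC9 arrays. The highest PC9/gef array was 0.97 below the lowest PC9 array. The means were 7.69 ± 0.10 in PC9/gef and 8.77 ± 0.09 in PC9 (SD, n = 3 each). The log2 change was -1.09 (SE 0.07, 95% interval -1.28 to -0.89, limma adjusted p = 0.00185), that is 2.12-fold lower. LYZ was the single gene of the 9 that fell by over 2-fold and was called, and 2.22% of the genes above background level were lower by that much.

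The other LYZ probe set, 1555745_a_at, showed the same direction. It read 5.54, 5.73 and 5.73 in PC9/gef and 6.94, 7.11 and 7.0 in PC9, again without overlap. Its log2 change was -1.35 (SE 0.08, 95% interval -1.55 to -1.15, limma adjusted p = 0.00113), or 2.55-fold lower. On the same array, the brighter LYZ probe set lay above the other by 2.20, 1.85 and 2.02 in PC9/gef and by 1.77, 1.62 and 1.88 in PC9. These gaps between the 2 probe sets overlapped between the lines.

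LCN2 encodes lipocalin-2, which binds bacterial enterobactin with its iron. Its probe set read 13.87, 13.91 and 13.87 in PC9/gef and 14.52, 14.54 and 14.57 in PC9, values near the top of the range of the arrays. Every PC9/gef array was below every PC9 array, and the lines were 0.61 apart at their nearest. The means were 13.89 ± 0.025 in PC9/gef and 14.54 ± 0.026 in PC9. The log2 change of -0.66 (SE 0.020, 95% interval -0.71 to -0.60, limma adjusted p = 0.000285) is a 1.58-fold lower level. This fold did not reach the 2-fold by which the study defines a differentially expressed gene.

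LTF encodes lactoferrin, which sequesters iron and also binds to bacterial surfaces. It read 3.70, 3.70 and 4.27 in PC9/gef and 2.53, 3.52 and 2.53 in PC9. The arrays did not overlap, but the gap was 0.18 and 2 of the 3 PC9 arrays were at background level. The means were 3.89 ± 0.33 in PC9/gef and 2.86 ± 0.57 in PC9. The log2 change of 1.03 (SE 0.36, 95% interval 0.056 to 2.0) had a limma adjusted p of 0.116 over all probe sets, and of 0.0478 when both the fit and the adjustment ran on the probe sets above background level alone. LTF was the member with the largest spread between arrays of a line. Its means differed by 2.04-fold, past the 2-fold of the study, but it was not called over all probe sets. Of all 19775 genes, 305 were over 2-fold higher in PC9/gef.

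The antiproteases SLPI and PI3 were both lower in PC9/gef, with small spreads between arrays. SLPI, the secretory leukocyte protease inhibitor, blocks neutrophil elastase and cathepsin G and also kills bacteria. It read 12.59, 12.54 and 12.56 in PC9/gef and 13.39, 13.38 and 13.34 in PC9, and the nearest arrays of the lines were 0.74 apart. The means were 12.57 ± 0.025 in PC9/gef and 13.37 ± 0.028 in PC9. The log2 change was -0.80 (SE 0.021, 95% interval -0.86 to -0.75, limma adjusted p = 0.000224), or 1.74-fold lower. With 1 probe set per gene, SLPI alone of the 9 passed a test against a minimum of 1.5-fold (limma treat, adjusted p = 0.018). Of the 12 probe sets, 2 passed it, the other being the dimmer LYZ probe set, 1555745_a_at.

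PI3 encodes elafin, which inhibits neutrophil elastase and proteinase 3 and is anchored to the matrix by transglutaminases. Its brighter probe set, 41469_at, read 13.06, 13.11 and 13.08 in PC9/gef and 13.77, 13.74 and 13.72 in PC9. The other, 203691_at, read 12.98, 13.02 and 12.95 in PC9/gef and 13.60, 13.61 and 13.58 in PC9. Neither probe set had overlapping lines. The log2 changes were -0.66 (SE 0.019, 95% interval -0.71 to -0.61, limma adjusted p = 0.000260) and -0.61 (SE 0.021, 95% interval -0.67 to -0.56, limma adjusted p = 0.000382), that is 1.58-fold and 1.53-fold lower.

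**Figure D2:**
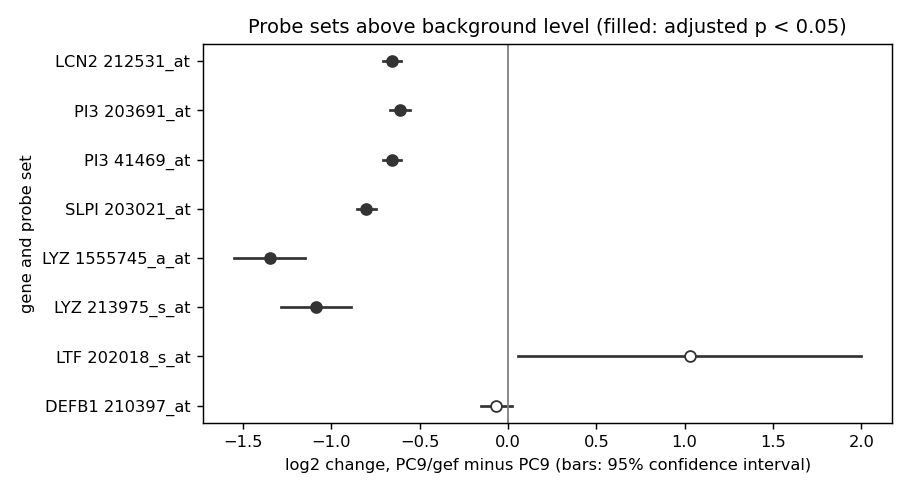
Log2 change, PC9/gef minus PC9 (horizontal axis), of the 8 probe sets above background level in at least 1 line, with 95% intervals from limma as bars and filled points where the adjusted p was under 0.05. The 6 probe sets of LCN2, PI3, SLPI and LYZ lie between -1.35 and -0.61, DEFB1 lies at -0.067 and LTF at 1.03 with the widest bar.

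The membrane-active and lipid-binding proteins were scarcely detected. DEFB1 encodes a beta-defensin that epithelium makes without induction. It read 2.65, 2.66 and 2.65 in PC9/gef and 2.78, 2.67 and 2.71 in PC9, just over the background level of 2.65 in either line. The log2 change of -0.067 (SE 0.032, limma adjusted p = 0.211) was not called. BPIFA1, a surfactant-like protein of the upper airway, was at 2.15 on all 6 arrays.

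The IgA carrier and the secretoglobin did not exceed the background level on any array. PIGR was at 2.30 in both lines by 204213_at and at 2.15 in both by 226147_s_at. SCGB1A1, the secretoglobin that defines club cells, was at 2.18 in both. No fold is given for these genes, since a probe set at background level in both lines can hold no more than an upper bound.

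The arrays of the lines did not overlap for any of the 6 genes above background level, and this was also so for 65.0% of the 11955 genes above that level. The genes whose 6 centred values lay nearest to those of LYZ were CAPS (distance 0.0925 over the 6 log2 values), PTPRG (0.131) and S100A4 (0.147). CAPS encodes a calcium-binding protein of ciliated cells, PTPRG a receptor tyrosine phosphatase and S100A4 a calcium-binding protein. Nearest to SLPI were LIPA (0.0453), the lysosomal acid lipase, POP7 (0.0478), a subunit of RNase P, and NDUFAF3 (0.0637), an assembly factor of mitochondrial complex I. Over 6 arrays of 2 lines, a gene comes near another on this measure when it changes by a similar amount in the same direction.

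SLPI and PI3 belong to the WAP domain family, most of whose genes lie together on chromosome 20. Of 16 other family symbols looked up, 12 had a probe set of their own, and 10 of these were at background level in both lines. WFDC3 was called higher in PC9/gef, at 8.97, 9.10 and 9.17, against 8.51, 8.42 and 8.43 in PC9. Its log2 change was 0.63 (SE 0.06, limma adjusted p = 0.00562), or 1.54-fold higher. WFDC2, also called HE4 and made by airway epithelium, averaged 10.56 in PC9/gef and 10.55 in PC9 and was not called (limma adjusted p = 0.943). In the order of genes from WFDC5 to WFDC3, 22 genes with a probe set, the 2 called lower were PI3 and SLPI and the 2 called higher were PIGT and WFDC3. A further 4 were not called and 14 were at background level, among them SEMG1 and SEMG2, semenogelin genes between PI3 and SLPI.

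**Figure D3:**
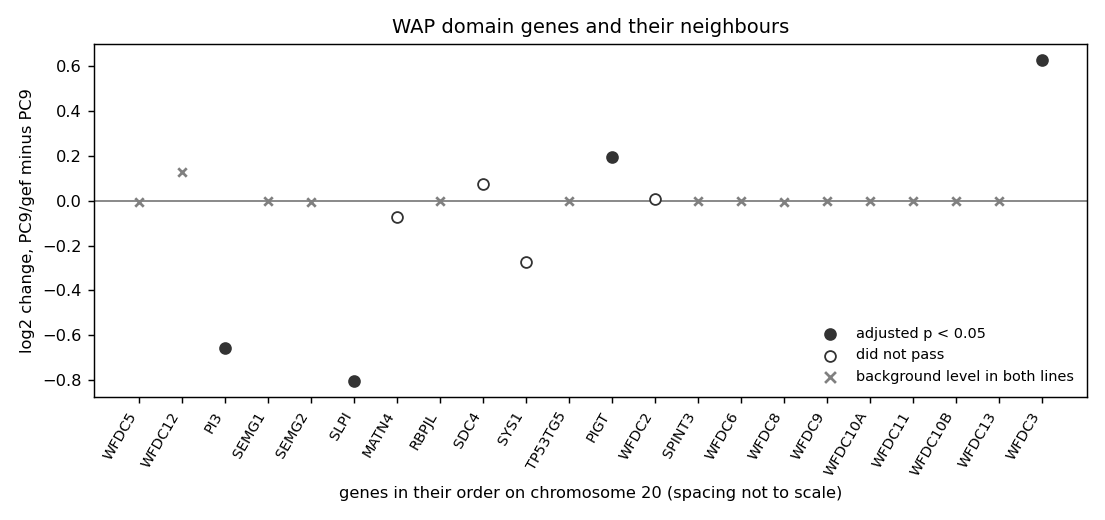
Log2 change, PC9/gef minus PC9 (vertical axis), of 22 genes in their order on chromosome 20 (horizontal axis, not to scale), with filled points for genes called, open points for genes not called and crosses for genes at background level in both lines. PI3 at -0.66 and SLPI at -0.80 lie below 0, and WFDC3, at the other end, lies at 0.63.

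Of 36 other antimicrobial proteins, 29 had a probe set of their own. Of these, 22 were at background level in both lines, including the collectin SFTPD, 2 were called lower, 0 higher, and 5 were not called. At an unadjusted limma p under 0.05, 4 of the 7 above background level were lower and 0 higher. Beside them, 3541 of all 11955 genes above that level were lower and 3459 higher at the same threshold. The methods' t-test also called 0 of the list higher. The genes called lower were S100A8 and S100A9, the subunits of calprotectin, which withholds zinc and manganese from microbes. S100A8 read 2.74, 3.32 and 3.30 in PC9/gef and 6.93, 7.06 and 7.13 in PC9, so that the PC9/gef arrays were close to background level. The log2 change was -3.92 (SE 0.19, limma adjusted p = 0.000813), or 15.1-fold lower, whereas a second S100A8 probe set, 214370_at, was at background level in both lines. S100A9 read 10.99, 11.02 and 10.98 in PC9/gef and 12.08, 12.03 and 12.04 in PC9, a log2 change of -1.05 (SE 0.020, limma adjusted p = 0.000128), or 2.07-fold lower. The list's median change was -0.00065, the same as over all genes, since most of it lay at background level.

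Among 19 measured partners and targets of these proteins, 1 was called higher, 1 lower, 4 were not called and 13 were at background level. With 6 genes above background level, these calls were near the shares among all such genes, 20.9% higher and 19.5% lower. PLSCR1, a phospholipid scramblase to which SLPI binds, averaged 10.92 in PC9/gef and 10.34 in PC9, a log2 change of 0.59 (SE 0.028, limma adjusted p = 0.000808). TFRC, the receptor for transferrin, averaged 13.62 in PC9/gef and 14.06 in PC9, a log2 change of -0.44 (SE 0.045, limma adjusted p = 0.00562). The neutrophil proteases ELANE, PRTN3 and CTSG, which SLPI and elafin inhibit between them, were at background level in both lines.

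Of 27 measured inducers of secretory defence genes, 4 were called higher, 6 lower, 13 were not called and 4 were at background level. Of its 23 genes above background level, 4 and 6 were thus called, near the shares of 20.9% higher and 19.5% lower among all genes above that level. The list's median change was -0.0052. CEBPD, a C/EBP factor of the acute-phase response, showed the largest change of the list. It read 7.49, 7.43 and 7.42 in PC9/gef and 8.65, 8.69 and 8.63 in PC9, a log2 change of -1.21 (SE 0.026, limma adjusted p = 0.000161), or 2.31-fold lower. A second CEBPD probe set, 213006_at, was at background level in both lines. ELF3, an ETS factor of epithelium, was lower at 8.31 in PC9/gef and 8.80 in PC9, a log2 change of -0.49 (SE 0.048, limma adjusted p = 0.00487). Its 2 dimmer probe sets changed by -0.92 and -1.16.

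On the other side, the interleukin-1 receptor IL1R1 was higher, at 5.61 in PC9/gef and 5.07 in PC9, a log2 change of 0.55 (SE 0.10, limma adjusted p = 0.0344). This call was lost when any array other than PC9 replicate 2 was left out, with limma adjusted p between 0.0623 and 0.122. A second IL1R1 probe set, 215561_s_at, was at background level in both lines. NFKBIZ, a nuclear partner of NF-kappaB that LCN2 induction requires, was higher at 9.85 in PC9/gef and 9.39 in PC9, a log2 change of 0.46 (SE 0.057, limma adjusted p = 0.0103). Without PC9/gef replicate 3 its adjusted p was 0.0501. A second NFKBIZ probe set, 223217_s_at, averaged 6.49 in PC9/gef and 6.17 in PC9. Its log2 change of 0.31 was not called (limma adjusted p = 0.0725). No link between these inducers and LYZ, LCN2, SLPI or PI3 was tested.

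Of 16 club and goblet cell genes, 11 were at background level in both lines, among them SCGB3A1 and SCGB3A2. AGR2, an endoplasmic reticulum protein needed for mucin folding, read 8.52, 8.41 and 8.44 in PC9/gef and 11.66, 11.64 and 11.62 in PC9. Its log2 change was -3.19 (SE 0.034, limma adjusted p = 5.8e-05), or 9.10-fold lower. A dimmer AGR2 probe set, 228969_at, was also called lower, at 2.57 in PC9/gef and 4.25 in PC9 (limma adjusted p = 0.0222). There PC9/gef was at background level, and PC9 was 3.03-fold above that level. TFF1, a trefoil peptide secreted with mucus, read 4.07, 3.78 and 4.65 in PC9/gef and 6.71, 6.91 and 6.65 in PC9, a log2 change of -2.59 (SE 0.25, limma adjusted p = 0.00507), or 6.02-fold lower. The other 3 above background level, MUC5AC, SPDEF and MSMB, were not called. MSMB averaged 3.83 in PC9/gef and 3.51 in PC9, a log2 change of 0.32, while MUC5AC and SPDEF changed by -0.062 and -0.035. AGR2 and TFF1 thus moved in the same direction as LYZ, LCN2, SLPI and PI3, while the markers that define club cells were at background level, and their part in the result was not tested.

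**Figure D4:**
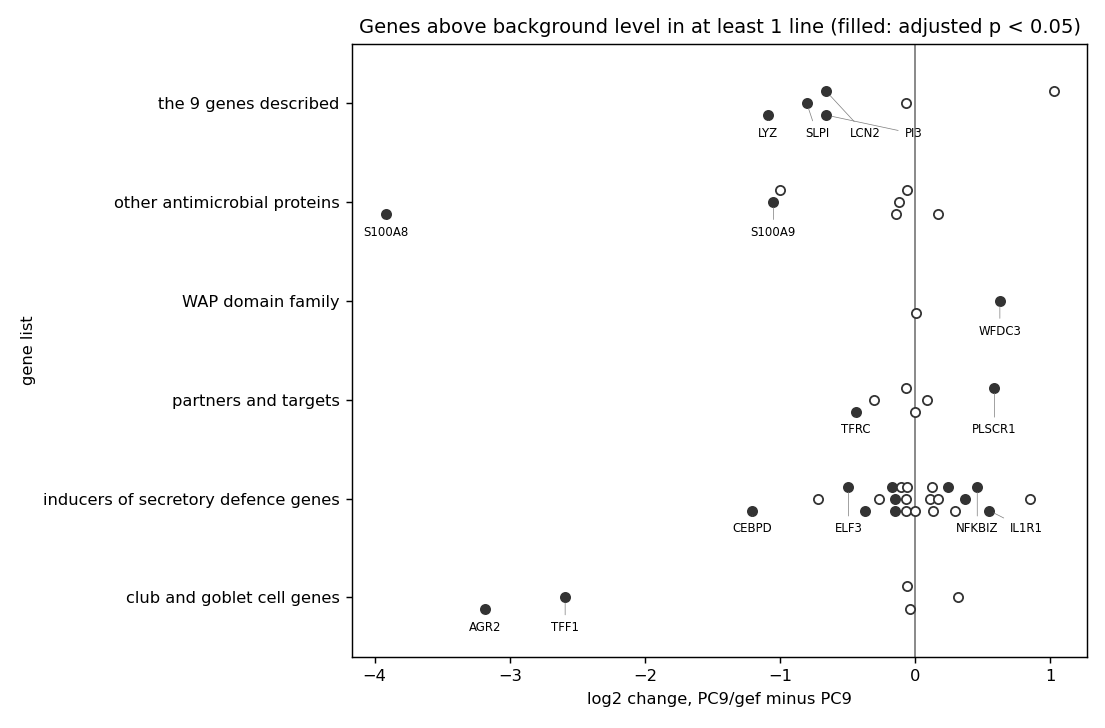
Log2 change, PC9/gef minus PC9 (horizontal axis), of the genes above background level in at least 1 line, for the 9 genes described and 5 related lists (rows), with filled points where the limma adjusted p was under 0.05 and names for those past 0.42 in size. S100A8 at -3.92, AGR2 at -3.19 and TFF1 at -2.59 lie farthest to the left, and filled points lie on both sides of 0 in the inducer list.

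Neutrophils and macrophages, which make lysozyme, and neutrophils, which also store lactoferrin, were looked for by their markers, as were fibroblasts. Of 11 measured neutrophil and macrophage markers, 10 were at background level in both lines, including PTPRC, MPO, ELANE and CD14. The exception, ITGAM, averaged 4.93 in PC9/gef and 3.77 in PC9 and was not called (limma adjusted p = 0.063). Its means differed by 2.23-fold, past the 2-fold of the study, and its arrays did not overlap between the lines. Of 7 fibroblast markers, 6 were at background level, and COL1A1 averaged 8.46 in PC9/gef and 7.94 in PC9 (limma adjusted p = 0.057).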

How the data were processed

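Affymetrix arrays with 54675 probe sets measured the RNA of 3 PC9/gef and 3 PC9 samples, each on an array of its own. The deposited values are on the log2 scale, after background correction, normalization and summary per probe set by the authors. GC-RMA and GeneSpring GX are named in the study's supplementary methods, and the submitters' processing notes name RMA, with no version given in the sources used here. The scale was checked from the values, which were used as deposited. Low probe sets are drawn together by such a summary, so their spreads are small. All columns of values belong to a labelled sample.

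After 62 Affymetrix controls were left out, 54613 probe sets were tested, of which 41091 had 1 gene in the annotation, 1801 had several and 11721 had no gene. The fit of PC9/gef against PC9 used limma 3.58.1 in R 4.3.3 (lmFit and eBayes, trend and robust off, no covariate), and Benjamini-Hochberg adjustment ran over all 54613 probe sets. Intervals are 95% intervals of that fit. The number of arrays and the signal over background limit the precision. The text names the 9 genes, from each list at most the 4 most changed genes that were called and whose arrays do not overlap, and the 3 genes nearest to each of the 2 genes of the 9 with the largest called change, by Euclidean distance over centred values. Other genes are named as counted members of a list and fall outside this rule, chosen with their values in view. The members and the lists were chosen with earlier results of these data known. Genes with no probe set of their own in the annotation were not analysed here, and the raw scans were not used here. RefSeq tables gave promoter windows and gene order. The fit was tested on simulated data. The alternatives were quantile normalization, centring on the median, moderation with a trend or robust, only probe sets above background level, the replicate number as a block, each array left out, the mean of a gene's probe sets, no probe sets named _x_at or _s_at, adjustment over genes, the methods' t-test and limma treat against 1.5-fold. Plots used matplotlib 3.10.9 and Python 3.11.15.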

Additional observations from a re-analysis of the deposited data

How the results depend on the processing

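LYZ, LCN2, SLPI and PI3 kept their direction under all 18 alternatives, with log2 changes of -1.35 to -1.03 for LYZ, -0.67 to -0.64 for LCN2, -0.82 to -0.79 for SLPI and -0.67 to -0.64 for PI3. They were called in all of them except limma treat against 1.5-fold. There LYZ (limma treat adjusted p = 0.0657), LCN2 (0.381) and PI3 (0.349), each read from its brightest probe set, were not. Under treat, 1 gene and 2 probe sets of the 9 genes were lower, 328 of all probe sets were higher and 319 lower, and the lists had 0 WAP family genes higher, 0 partners higher and 0 lower, and 0 inducers higher and 1 lower. Arrays number 3 per line, and at background level no change can be read. LTF ranged from 0.84 to 1.36. It was called, as 1 gene and 1 probe set higher, only when the fit, its moderation and the adjustment ran on the probe sets above background level alone, where 7 inducers were higher. PIGR was called lower under 3 alternatives, among them an intensity trend and the methods' t-test, both at a log2 change of -0.00081.

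Same-numbered arrays of the lines did not deviate together (r of -0.0255, 0.0155 and 0.0471), and differently numbered ones had r from -0.0657 to 0.0503. With 3 arrays per line, each line centred on its own mean, this cannot exclude a pairing, and no label states one. With the replicate number as a block, 2020 probe sets were higher and 2103 lower, 0 WAP family genes were higher, 2 inducers higher and 3 lower, and 1 club and goblet cell gene lower. LYZ, LCN2, SLPI and PI3 stayed called with the block, while WFDC3 (adjusted p = 0.0834), ELF3 (0.0691), NFKBIZ (0.075), IL1R1 (0.055) and TFF1 (0.0721) did not. Leaving out each array in turn gave 2864 to 8342 probe sets lower, the highest without PC9/gef replicate 2, against 4912 with all arrays. It left 4 of the 9 genes lower each time, and gave 1 to 4 inducers higher, 3 to 5 lower, and 1 to 2 partners higher. The lowest inducer counts came without PC9/gef replicate 3. Without PC9 replicate 3, 2 inducers and 2 partners were higher.

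With the mean of a gene's probe sets, 180 genes were over 2-fold higher and 169 lower, 1 other antimicrobial protein was higher, 2 partners were lower and 1 club and goblet cell gene was higher. S100A8 was then at -1.96, CEBPD at -0.61, AGR2 at -2.43, PLSCR1 at 0.30, IL1R1 at 0.27 and ELF3 at -0.86. Without probe sets named _x_at or _s_at, 2261 probe sets were higher and 3164 lower, 1 other antimicrobial protein was lower, 0 partners and 2 inducers were higher, and S100A8 (-0.0016), CEBPD (-0.01) and PLSCR1, which turned to -0.0021, were read from probe sets at background level. With adjustment over genes, 2 partners were higher. The methods' t-test, at its unadjusted threshold, called 17110 probe sets lower, 2 partners higher and 7 inducers higher. The cause of these differences was not tested.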

Other observations

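Keratins of basal cells were lower in PC9/gef. KRT5 averaged 6.95 ± 0.12 in PC9/gef and 8.44 ± 0.04 in PC9 (SD, n = 3 each), a log2 change of -1.49 (limma adjusted p = 0.000684), and its partner KRT14 averaged 4.81 ± 0.24 in PC9/gef and 6.0 ± 0.10 in PC9, a change of -1.20 (limma adjusted p = 0.00881). KRT15 changed by -0.18 (limma adjusted p = 0.0449), and the other 2 of the 5 measured basal cell markers were at background level. Of 6 measured ciliated cell markers, 3 were at background level, among them FOXJ1, the factor that directs cilium formation. RSPH1, a radial spoke protein, and CAPS were lower, with log2 changes of -1.26 (limma adjusted p = 0.0293) and -1.11 (limma adjusted p = 0.00187). DNAH5, the other one above background level, changed by -0.043 and was not called (limma adjusted p = 0.657). The CAPS probe sets 231729_s_at and 231728_at were also called lower, and 231710_at was not called. Among all genes above background level, 19.5% were called lower. Of 8 measured alveolar type II cell markers, 5 were at background level and 0 were called by limma, and of those above it LAMP3 was lower at an unadjusted limma p under 0.05, with a log2 change of -0.22. Of the 6 epithelial markers, KRT7 and CDH1 were higher in PC9/gef, with log2 changes of 0.29 and 0.19, and KRT8 and KRT18 were lower, with log2 changes of -0.33 and -0.10.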
